A study of Mus musculus with 39 samples.

Results

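Cytochrome c oxidase, the terminal enzyme of the mitochondrial respiratory chain, is built by a set of dedicated assembly factors, and 10 of them were followed here: Coa3, Coa4, Coa5, Coa6, Coa7, Sco1, Sco2, Surf1, Cox10 and Cox15. They were taken by symbol from 28023 listed symbols, and all 10 were listed in both expression tables of the series. The set was chosen by the level of Coa7, which was lower in CD8 T cells of anti-PD-1-treated mice when the donor stool had been exposed to CZA+DAV132 rather than CZA, so that difference is given as a description without a test. The other 9 were added as further members of the same assembly pathway.

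The libraries came from wild-type C57BL/6 mice given a faecal microbiota transplant (FMT) of human volunteer (HV) stool that had been treated for 6 days with CZA alone or with CZA plus DAV132, the colon-targeted adsorbent named in the study's title. The labels do not spell out CZA. After 2 weeks every mouse received MCA-205 fibrosarcoma cells under the skin, and tumours of 25 to 35 mm2 were treated by 4 intraperitoneal injections, 3 days apart, of anti-PD-1 (clone RMP1-14, 250 μg per mouse) or of an isotype control antibody (clone 2A3). Tumours were taken 2 days after the last injection. In a repeat of the experiment with the same transplant material, CD8+ T cells were sorted from the tumours.

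There were thus 4 groups in each set: CZA+DAV132 with anti-PD-1, CZA with anti-PD-1, CZA+DAV132 with isotype, and CZA with isotype. The sorted CD8 set had 5 libraries in each group (20 in all), and the set labelled bulk tumour had 5, 5, 4 and 5 libraries in that order (19 in all). All mice carried a transplant of CZA-exposed human stool and a tumour of a single cell line, so neither set has a group without CZA, a transplant or a tumour. The labels do not say whether each library came from 1 mouse, so the p-values below measure only the spread between these libraries. Levels are TPM as deposited, shares of transcripts corrected for transcript length. Such values do not hold the read depth, which is unknown here. Differences are on the log2(TPM + 1) scale with their standard error (SE), tests are from limma across all genes of a set, and a gene was called at a Benjamini-Hochberg adjusted p under 0.05.

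Several libraries stood apart. Transcripts of 19 repeat-rich predicted genes made up 12.0% to 71.8% of the TPM in CD8 libraries of CZA+DAV132 with anti-PD-1, against 3.81% to 14.7% in CZA anti-PD-1, 2.36% to 8.58% in CZA+DAV132 isotype and 0.351% to 25.7% in CZA isotype. The highest shares were in CD8 libraries 19 (71.8%) and 16 (29.2%), both from CZA+DAV132 mice given anti-PD-1. Because TPM are shares of a fixed total, such entries lower every other value in the same library, and the differences of the members that rest on CD8 libraries 16 and 19 are also given without them. In the set labelled bulk tumour the shares were 0.23% to 0.784% except in T026 (51.1%, CZA+DAV132 anti-PD-1) and T985 (13.9%, CZA isotype). That set also carried T cell transcripts at a median summed level of 7981 TPM over 7 marker genes, against 10217 TPM in sorted CD8 cells, while 6 fibroblast and fibrosarcoma genes summed to a median of 32.3 TPM, ranging from 6.35 to 897 TPM. Of these, Col1a1 and Col1a2 were above 0 in every library, Col3a1 and Dcn were listed at 0 in 2 of the 19, Pdgfrb in 15 and Lum in 18. The endothelial sum in that set, nearly all Pecam1, had a median of 1304 TPM, against 406 TPM in sorted CD8 cells. The macrophage and monocyte sum had a median of 110 TPM, against 235 TPM. Of these marker sums, that of the T cell genes was the highest by median in the libraries labelled bulk tumour. They are called by their label below.

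The oxidase contains heme a and copper centres in its mitochondrially encoded core subunits, and each must be made, carried and inserted before the nuclear-encoded subunits close around the core. Cox10 and Cox15 make the heme: Cox10 turns heme b into heme o, and Cox15 turns heme o into heme a. Surf1 takes part in placing heme a in the first core subunit, and Coa3 binds that subunit while it is being made. Sco1 and Sco2 are copper chaperones for the second core subunit, with Coa6 working beside them, while Coa4 and Coa5 are small proteins of the intermembrane space with paired cysteine motifs, like Coa6. Coa7, also in the intermembrane space and built of Sel1-like repeats, has been described from human cells as a heme-binding disulfide reductase that acts on the copper chaperones. T cells draw on respiration during activation and memory formation.

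Coa7 (ENSMUSG00000048351) lies on the plus strand of chromosome 4 at 108328140 to 108341544 in GRCm38 and has 5 annotated transcripts, with no other annotated gene overlapping it. The promoter windows of Coa7, of Coa3 and Surf1, which differed most after it in the CD8 comparison that chose the set, and of Sco1, which hardly differed there, are printed to let their sequences be compared. Each runs from 250 bases before to 50 bases after the annotated start in RefSeq on GRCm38.p6 and is written 5′ to 3′ on the gene's strand. Capitals mark exact matches, on either strand, to a CRE, an NRF1 site, an ETS site, a YY1 site, a GC box or an E-box, and the letters of all but the NRF1 site are given with the counts after the sequences. Coa7 is at chr4:108327902-108328201 (plus strand), Coa3 at chr11:101278899-101279198 (minus strand), Surf1 at chr2:26916481-26916780 (minus strand) and Sco1 at chr11:67052420-67052719 (plus strand).
Coa7: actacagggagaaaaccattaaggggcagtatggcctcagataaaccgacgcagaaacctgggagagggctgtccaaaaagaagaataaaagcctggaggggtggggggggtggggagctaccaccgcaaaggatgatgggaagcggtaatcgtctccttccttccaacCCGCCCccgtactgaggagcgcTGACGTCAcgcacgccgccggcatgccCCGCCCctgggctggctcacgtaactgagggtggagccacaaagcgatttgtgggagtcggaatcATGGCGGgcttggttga
Coa3: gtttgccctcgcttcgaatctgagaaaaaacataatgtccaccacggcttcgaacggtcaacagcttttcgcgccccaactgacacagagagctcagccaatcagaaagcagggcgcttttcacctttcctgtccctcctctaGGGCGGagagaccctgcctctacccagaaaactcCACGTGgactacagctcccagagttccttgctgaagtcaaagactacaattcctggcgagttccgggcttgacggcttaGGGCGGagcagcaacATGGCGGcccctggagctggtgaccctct
Surf1: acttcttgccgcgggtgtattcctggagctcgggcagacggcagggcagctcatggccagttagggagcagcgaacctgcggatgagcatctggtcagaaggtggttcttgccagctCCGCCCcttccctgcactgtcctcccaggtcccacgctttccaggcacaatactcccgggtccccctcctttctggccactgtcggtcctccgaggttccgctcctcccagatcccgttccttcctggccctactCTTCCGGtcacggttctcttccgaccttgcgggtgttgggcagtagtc
Sco1: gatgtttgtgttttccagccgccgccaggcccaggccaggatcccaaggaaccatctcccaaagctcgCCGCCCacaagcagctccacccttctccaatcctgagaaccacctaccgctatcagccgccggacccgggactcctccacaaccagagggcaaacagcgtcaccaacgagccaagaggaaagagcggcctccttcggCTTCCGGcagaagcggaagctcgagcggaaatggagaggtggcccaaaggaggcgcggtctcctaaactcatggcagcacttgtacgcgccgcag

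The table held a promoter for 9 of the 10 genes, all but Coa6. Of these 9, only Coa7 had a CRE (TGACGTCA) in the window, starting 59 bases before the annotated start, against 1.79% of all 32851 promoters of the same length. The GC box (GGGCGG) was in 8 of 9 members, all but Coa5, and in 35.7% of all promoters. The ETS site (CCGGAAG) was in 5 members (Coa4, Sco1, Surf1, Cox10 and Cox15) and in 8.86% of all promoters. The YY1 site (ATGGCGG) was in 3 members (Coa3, Coa7 and Cox10) and in 4.05%. The E-box (CACGTG) was in 2 members (Coa3 and Sco2) and in 7.15%. The NRF1 site was in 0 members and in 4.6%. No match overlapped another in these windows. The motifs were picked after the Coa7 promoter had been read, so these shares describe the windows only.

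In sorted CD8 cells, Coa3 had the highest level of the 10 (median 113 TPM over 20 libraries), followed by Coa6 (59.7), Surf1 (56.6), Coa7 (19.7), Cox10 (12.3), Coa5 (10.5), Coa4 (8.85), Sco1 (4.69), Cox15 (3.27) and Sco2 (1.29). The steps from Surf1 to Coa7 and from Coa4 to Sco1 held in 20 of 20 libraries, and that from Coa3 to Coa6 in 19. Coa6 was above Surf1 in only 11 of 20, so these neighbours did not separate beyond their spread. Coa7 stood above Cox10 in 15 of 20 libraries, and the 5 exceptions were the 5 CZA+DAV132 anti-PD-1 libraries. Sco2 was listed at 0 in 4 libraries and shares its strand and part of its locus with Tymp, so its value is uncertain.

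In CD8 cells under anti-PD-1, the comparison that chose the set, Coa7 had 3.74, 8.74, 7.47, 1.43 and 7.61 TPM in CZA+DAV132 libraries (16 to 20), against 25.7, 18.3, 15.6, 19.8 and 19.7 TPM in CZA libraries. All 5 CZA+DAV132 libraries lay below all 5 CZA libraries, with means of 5.80 ± 3.08 and 19.8 ± 3.68 TPM (SD, n = 5 each). The log2 difference was -1.76 (SE 0.30). It was -1.20 without libraries 16 and 19, -1.43 when TPM were rescaled without the repeat-rich entries, and -1.34 under median-ratio scaling. The median of all 12942 genes tested was -0.40 as deposited, and it was -0.05, -0.07 and -0.01 under those same 3 settings, so Coa7 lay below the general shift in each.

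**Figure D1:**
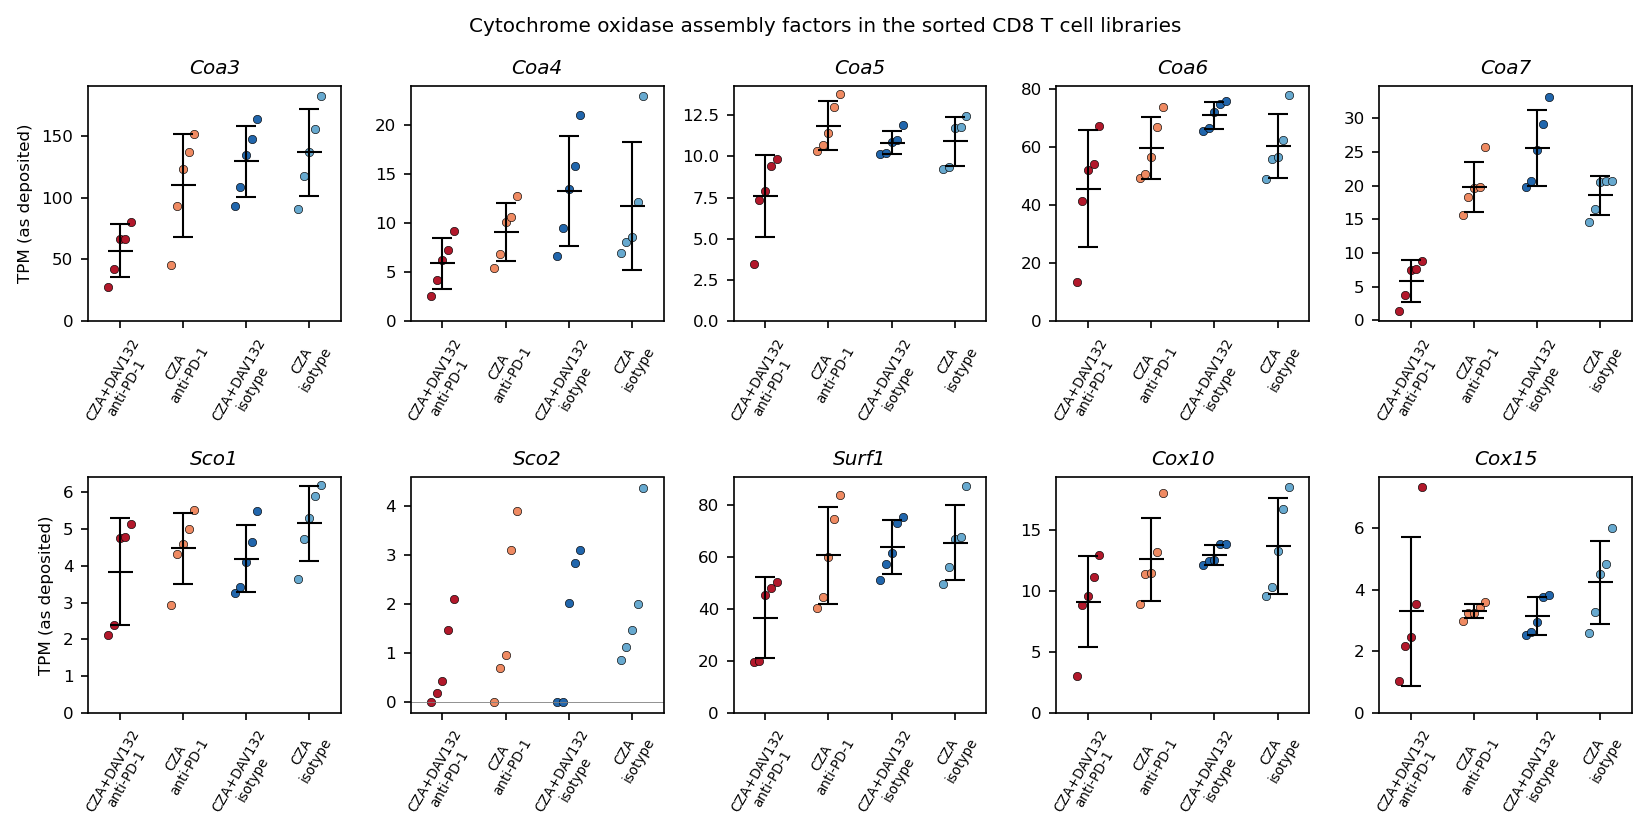
Levels of the 10 assembly factors in sorted CD8 T cells, in TPM as deposited, by group on the x axis; points are libraries (5 a group), and bars are the mean and SD, left out for Sco2 because it has values of 0. The 5 Coa7 points of CZA+DAV132 anti-PD-1 sit between 1.43 and 8.74 TPM, below all 15 points of the other groups, the lowest of which is 14.6 TPM.

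As deposited, the other members were also lower in CZA+DAV132 than in CZA libraries under anti-PD-1, by less, and most of these differences were smaller once the repeat-rich content was set aside. Coa3 had 42.6, 66.9, 66.8, 27.4 and 80.6 TPM in CZA+DAV132 libraries, against 151, 92.9, 45.6, 136 and 123 TPM in CZA libraries, and the groups overlapped through CZA library 8. Coa5 had 7.34, 7.92, 9.81, 3.48 and 9.40 TPM in CZA+DAV132 libraries, against 13.7, 10.7, 10.3, 13.0 and 11.4 TPM in CZA libraries, with no overlap. The log2 differences were -0.92 for Coa3, -0.77 for Surf1, -0.64 for Coa5, -0.60 for Coa4, -0.53 for Coa6, -0.51 for Cox10, -0.47 for Sco2, -0.22 for Sco1 and -0.16 for Cox15. Without libraries 16 and 19 they were -0.51 for Coa3, -0.28 for Surf1, -0.35 for Coa5, -0.20 for Coa4, -0.03 for Coa6, -0.16 for Cox10 and -0.06 for Sco2. With the repeat-rich entries removed they were -0.47 for Coa3, -0.32 for Surf1, -0.23 for Coa5, -0.20 for Coa4, -0.08 for Coa6, -0.11 for Cox10 and -0.44 for Sco2, and under median-ratio scaling -0.40, -0.25, -0.16, -0.14, -0.01, -0.04 and -0.38 in the same order. As deposited, their median with Coa7 was -0.56, against -0.40 over all genes tested, and 8 of the 10 lay below that general median. Coa5 and Coa7 were the 2 members whose groups did not overlap as deposited, where 2.58% of all genes tested were lower without overlap. With the repeat-rich entries removed or under median-ratio scaling only Coa7 kept its groups apart, at 5.07 to 10.7 TPM against 18.3 to 26.7 TPM in the first case. The share of all genes was not counted under those scalings. Limma called 0.0386% of all genes in this comparison (5 genes), a number that leaving out 1 library moved to between 0 (without library 6) and 3975 (without library 20), and no member is tested in it. Coa6 had 13.5 to 67.5 TPM in CZA+DAV132 libraries and 49.6 to 74.1 TPM in CZA libraries, Surf1 19.6 to 50.2 and 40.3 to 83.8 TPM, Cox10 3.06 to 12.9 and 8.91 to 18.0 TPM, Sco1 2.12 to 5.15 and 2.93 to 5.51 TPM, and Cox15 1.03 to 7.33 and 2.98 to 3.60 TPM. CD8 library 19 was the lowest of all 20 libraries for 8 of the 10 members, Coa7 among them. Under median-ratio scaling, without the repeat-rich entries and without libraries 16 and 19, the difference of Sco1 changed sign, to 0.20, 0.15 and 0.13. That of Cox15 did so too, to 0.20, 0.15 and 0.24, and to 0.07 without library 19 alone. With array weights Sco1 was at 0.06 and Cox15 at 0.31.

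Coa7 was set against the other members within each library, so that a factor common to the library largely cancels. The mean log2(TPM + 1) of the 8 other members without Sco2 was subtracted from that of Coa7. In CD8 cells this gave -1.12, -0.69, -1.09, -1.51 and -0.95 in CZA+DAV132 anti-PD-1 libraries, a mean of -1.07 ± 0.30, against 0.15 ± 0.16 in CZA anti-PD-1, 0.38 ± 0.35 in CZA+DAV132 isotype and -0.09 ± 0.29 in CZA isotype (SD, n = 5 each). The highest CZA+DAV132 anti-PD-1 value (-0.69, library 17) was below the lowest of the other 15 libraries (-0.43). Coa7 made up 3.09% ± 0.84 of the summed TPM of the 10 members in CZA+DAV132 anti-PD-1 libraries, against 6.89% ± 0.90, 7.74% ± 1.95 and 5.77% ± 1.00 in the same order of groups. These values describe the same libraries that chose Coa7 and carry no test.

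**Figure D2:**
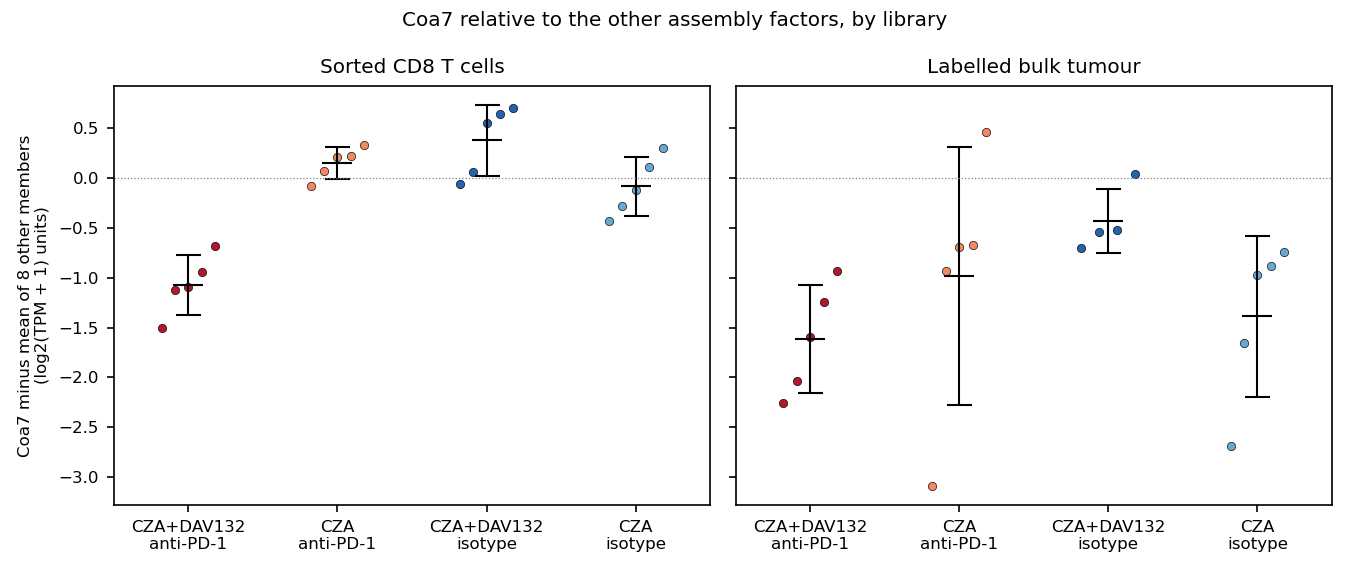
Coa7 relative to the other assembly factors: log2(TPM + 1) of Coa7 minus the mean of 8 other members (y axis) by group (x axis), for sorted CD8 cells (left) and libraries labelled bulk tumour (right); points are libraries, bars the mean and SD. CD8 libraries of CZA+DAV132 anti-PD-1 average -1.07 and lie apart from the other groups, while in the other set the CZA+DAV132 anti-PD-1 points (up to -0.94) and the CZA isotype points (up to -0.75) lie below the CZA+DAV132 isotype points (down to -0.70).

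The effect of anti-PD-1 within CZA+DAV132 mice shares 5 of its libraries with the comparison above. Here 3 of the 9 other members fell in CD8 cells, and the rest did not pass the test; limma called 23.5% of all genes tested, and 19.4% of all genes tested were called lower. The balance of all calls moved with the scaling: 533 genes were higher and 2509 lower as deposited, 1471 higher and 1828 lower under median-ratio scaling, 1374 higher and 1217 lower without the repeat-rich entries, and 536 higher and 656 lower without libraries 16 and 19. Coa7 itself is given without a test: it had 3.74, 8.74, 7.47, 1.43 and 7.61 TPM in anti-PD-1 libraries, against 29.1, 20.7, 33.2, 25.3 and 19.8 TPM in isotype libraries, a log2 difference of -2.11 (SE 0.30) with no overlap, and -1.55 without libraries 16 and 19.

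Coa3, the early chaperone of the first core subunit, had 42.6, 66.9, 66.8, 27.4 and 80.6 TPM in anti-PD-1 libraries, against 109, 148, 134, 93.0 and 163 TPM in isotype libraries. The groups did not overlap, and the log2 difference of Coa3 was -1.24 (SE 0.32), past the threshold at a limma adjusted p of 0.0124. Surf1, of heme insertion, had 19.9, 45.4, 50.2, 19.6 and 48.1 TPM in anti-PD-1 libraries, against 73.0, 57.1, 61.4, 51.2 and 75.6 TPM in isotype libraries. These groups also stayed apart, narrowly, and Surf1 fell by 0.88 (SE 0.29, limma adjusted p = 0.0309). Coa4 had 2.56, 6.28, 7.25, 4.22 and 9.15 TPM in anti-PD-1 libraries, against 13.5, 15.8, 20.99, 6.63 and 9.47 TPM in isotype libraries. Its groups overlapped, and it fell by 1.05 (SE 0.34, limma adjusted p = 0.0315).

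Coa6 differed by -0.79 (SE 0.30, limma adjusted p = 0.0584), Coa5 by -0.52 (SE 0.21, adjusted p = 0.0789), Sco2 by -0.37 (adjusted p = 0.605) and Sco1 by -0.14 (adjusted p = 0.69). The heme-making enzymes gave -0.58 for Cox10 (limma adjusted p = 0.135) and -0.09 for Cox15 (adjusted p = 0.836). As deposited, groups did not overlap for Coa3, Coa5, Coa7 and Surf1, where 12.1% of all genes were lower without overlap. After removal of the repeat-rich entries or median-ratio scaling the groups stayed apart for Coa3 and Coa7, with no share of all genes counted there. Under median-ratio scaling, without the repeat-rich entries and without libraries 16 and 19, Coa5 was at -0.10, -0.05 and -0.24 and Coa6 at -0.33, -0.27 and -0.30. Sco1 changed sign under these settings, to 0.23, 0.29 and 0.20, and so did Cox15, to 0.23, 0.28 and 0.31, while Cox10 was at -0.16, -0.10 and -0.23. Sco2 changed sign without libraries 16 and 19 (0.04) and with array weights (0.09). The median of all genes was -0.34 as deposited and -0.01 without libraries 16 and 19. With any 1 library left out Coa3 stayed called, whereas Coa4 lost its call without library 11, 12, 13, 16 or 19 and Surf1 without 11, 13, 15, 16 or 19, and Coa5 and Coa6 gained one without 18 or without 20. Without libraries 16 and 19 together none of the 9 was called, with limma adjusted p-values of 0.0916 for Coa3 (-0.82), 0.231 for Coa4 (-0.66) and 0.252 for Surf1 (-0.39). With the repeat-rich entries removed only Coa3 was called (-0.70, limma adjusted p = 0.0408), as it was under median-ratio scaling (-0.77, adjusted p = 0.0203).

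Among the other genes of the pathway, more fell than rose in this comparison as deposited and under each scaling. Of 23 other cytochrome oxidase biogenesis genes in the file, 10 fell and none rose, against 19.4% of all genes called lower, with a list median of -0.73; the smallest p-values were those of Higd1a (-1.23, limma adjusted p = 0.00941), Cox14 (-1.10, adjusted p = 0.00974), which binds the first core subunit together with Coa3, and Smim20 (-1.13, adjusted p = 0.00979). Of 12 nuclear-encoded oxidase subunits 11 fell (median -1.19), led by Cox7a2 (-1.43, limma adjusted p = 0.00653), Ndufa4 (-1.69, adjusted p = 0.0068) and Cox5a (-1.60, adjusted p = 0.00715). Of 15 intermembrane space import and paired-cysteine genes 10 fell (median -0.91), led by Chchd1 (-1.51, limma adjusted p = 0.0069), Ndufs5 (-1.08, adjusted p = 0.0134) and Chchd7 (-1.08, adjusted p = 0.0158). Of 26 assembly factors of the other respiratory complexes 13 fell and 1 rose (median -0.82), with Ndufaf4 (-1.21, limma adjusted p = 0.00845) and Sdhaf1 (-1.39, adjusted p = 0.00845) among the lower, and Timmdc1, a complex I assembly factor (1.08, adjusted p = 0.0122), the higher one. The 9 members tested had a median of -0.58 and all genes one of -0.34. Without the repeat-rich entries the medians of the lists were -0.26, -0.65, -0.38 and -0.38 in the order above, and without libraries 16 and 19 -0.35, -0.69, -0.41 and -0.40, while that of the 9 members was -0.27 and -0.24. Without libraries 16 and 19 the calls were 2, 8, 1 and 3 in the order of the lists above, and without the repeat-rich entries 5, 10, 6 and 6. In both, Timmdc1 was the 1 gene of the lists called higher. Beside these counts, 536 of all 12942 genes tested were called higher and 656 lower without libraries 16 and 19. Without the repeat-rich entries 1374 of all genes were called higher and 1217 lower. With 1 library left out the calls were 5 to 14, 10 to 12, 5 to 13 and 4 to 19, lowest without libraries 16, 11, 15 and 15 in the same order. The values of the genes named above are as deposited. Without libraries 16 and 19 only 1 intermembrane space gene was called, so not all of the named genes kept their call.

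Marker genes of other cells differed between the same CD8 groups, and their part in the results was not tested. The 7 T cell genes summed to 3233 to 10782 TPM in CZA+DAV132 anti-PD-1 libraries, against 8764 to 14422 TPM in CZA anti-PD-1 and 9163 to 12369 TPM in CZA+DAV132 isotype libraries. The 7 macrophage and monocyte genes summed to 40.0 to 208 TPM in CZA+DAV132 anti-PD-1, against 62.8 to 392 and 57.8 to 550 TPM in those groups, and the 4 globin genes to 110 to 840 TPM, against 43.7 to 227 and 112 to 550 TPM. The 3 NK cell genes summed to 6.75 to 17.0 TPM, against 15.4 to 23.4 and 16.7 to 54.4 TPM, with ranges that overlapped. The endothelial sum was nearly all Pecam1 and was 431 to 2467 TPM in CZA+DAV132 anti-PD-1, against 221 to 815 and 216 to 381 TPM, with Cdh5 listed at 0 in 12 of 20 libraries. Fewer cells expressing a gene and less RNA of it per cell cannot be told apart in such libraries.

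In the other CD8 comparisons no member was called. With DAV132 under isotype, Coa7 had 29.1, 20.7, 33.2, 25.3 and 19.8 TPM in CZA+DAV132 libraries, against 16.5, 14.6, 20.7, 20.7 and 20.5 TPM in CZA libraries. The groups overlapped at a log2 difference of 0.43 (SE 0.30, limma adjusted p = 1), the opposite sign to that under anti-PD-1. None of the 10 members passed (range -0.35 for Sco2 to 0.43 for Coa7), against 0% of all genes by limma, of which 320 had an unadjusted p under 0.05. With anti-PD-1 in CZA mice Coa7 averaged 19.8 ± 3.68 TPM in anti-PD-1 libraries and 18.6 ± 2.88 TPM in isotype libraries (SD, n = 5 each), a difference of 0.08 given without a test. The 9 other members ranged from -0.38 for Coa3 to 0.11 for Coa5, and none was called, against 0.0155% of all genes. In CZA isotype libraries Coa3 had 90.7, 118, 155, 137 and 182 TPM and Surf1 49.6, 67.8, 66.997, 56.1 and 87.2 TPM, both overlapping CZA anti-PD-1. The interaction asks whether the effect of anti-PD-1 differed between CZA+DAV132 and CZA mice. It was -2.19 (SE 0.42) for Coa7, without a test, and -1.63 without libraries 16 and 19. It was between -0.86 for Coa3 and 0.15 for Cox15 for the others, of which none was called (smallest limma adjusted p 0.313, Coa5), and without libraries 16 and 19 between -0.44 for Coa3 and 0.55 for Cox15; 0% of all genes passed, and 2036 had an unadjusted p under 0.05. A p above the threshold does not show that these members did not differ.

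**Figure D3:**
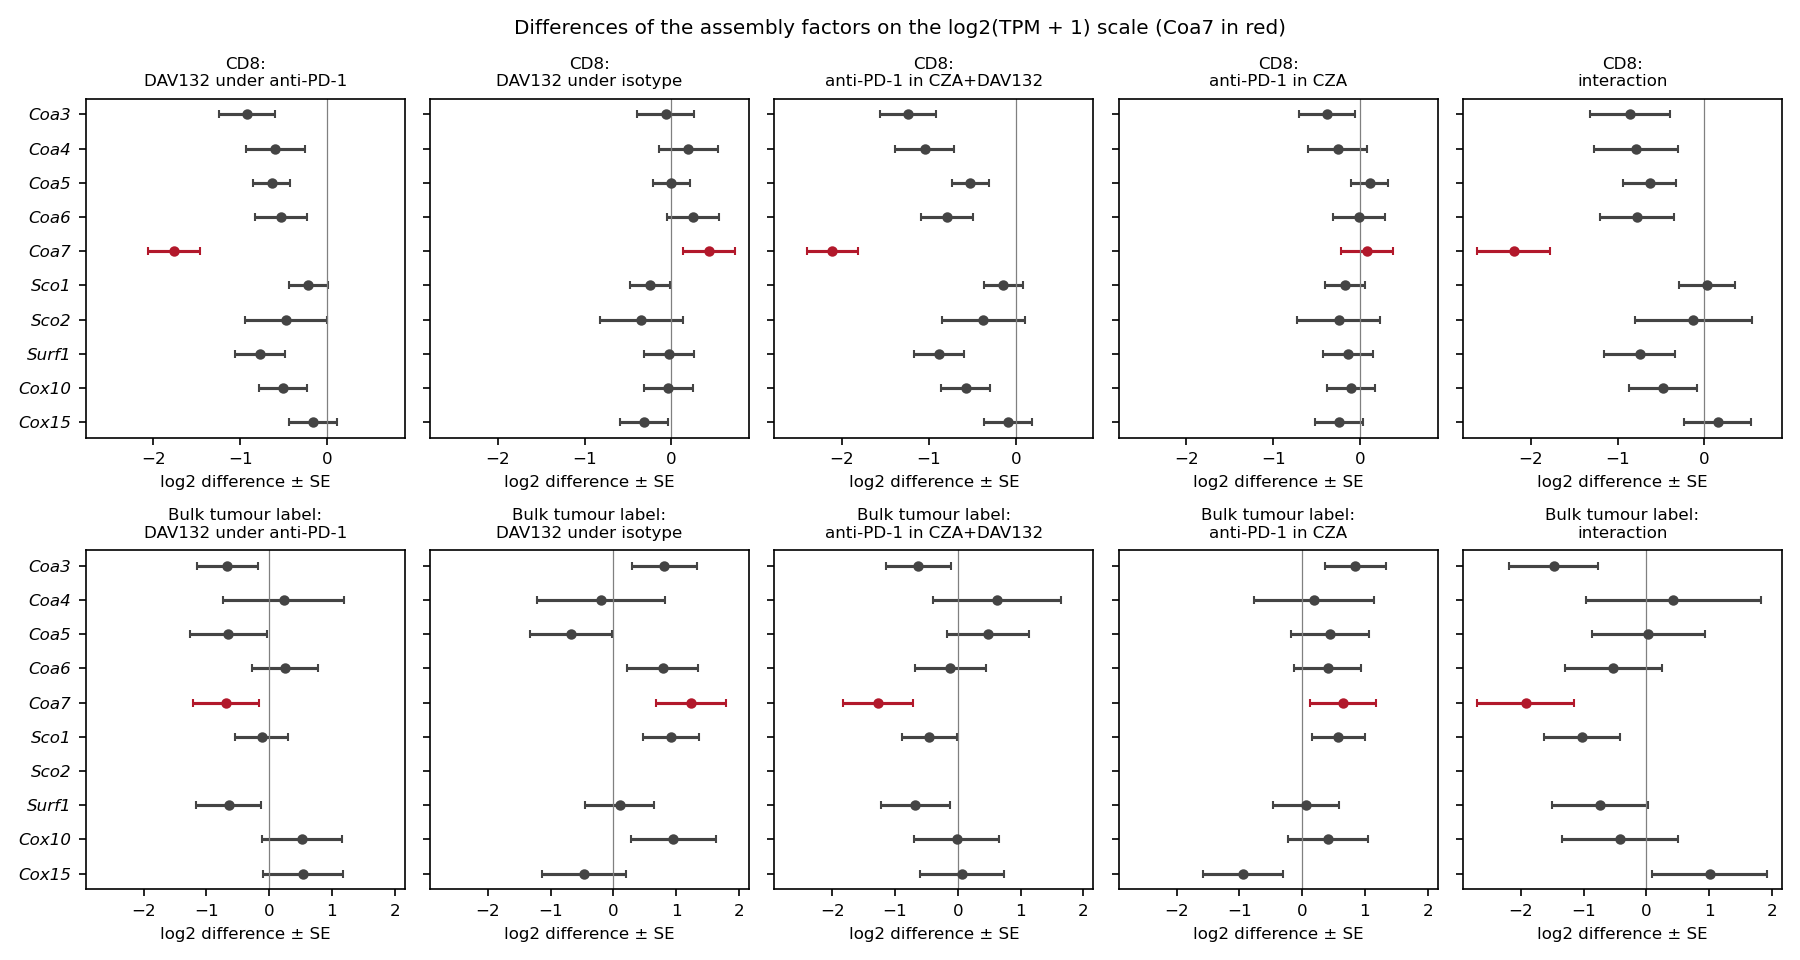
Log2(TPM + 1) differences (x axis, points) with their SE (bars) for each assembly factor (rows) in 5 comparisons of sorted CD8 cells (top) and libraries labelled bulk tumour (bottom), Coa7 in red; Sco2 was not fitted in the lower row. Coa7 is at -1.76 and -2.11 in the CD8 comparisons of CZA+DAV132 anti-PD-1 libraries and at 0.43 and 0.08 in the other pair.

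The libraries labelled bulk tumour had no part in the Coa7 difference that chose the set, so all comparisons there were tested. Earlier results of these data were known when the members and comparisons were chosen. Sco2 was listed at 0 in 18 of 19 libraries and at 4.77 TPM in T027, and it failed the filter on low values; the other 9 members passed it. Surf1 and Coa3 led with medians of 51.1 and 51.3 TPM and did not separate, Coa3 being higher in 7 of 19 libraries. Coa6 followed at 25.3, Cox10 at 11.3, Coa5 at 10.7, Sco1 at 8.82, Coa7 at 5.45, Coa4 at 3.18 and Cox15 at 3.11 TPM, with Coa5 above Sco1 in 9 of 19.

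Under anti-PD-1, Coa7 had 6.73, 4.06, 1.34, 5.45 and 2.80 TPM in CZA+DAV132 libraries, against 7.34, 9.79, 1.46, 5.38 and 16.6 TPM in CZA libraries. The CZA group spanned the whole of the CZA+DAV132 range but for its lowest value, and the log2 difference of -0.69 (SE 0.53) did not pass the test (limma adjusted p = 0.859). None of the 9 members tested was called, against 0% of all genes, of which 1010 had an unadjusted p under 0.05. The members ranged from -0.69 for Coa7 to 0.54 for Cox15, with Coa3 at -0.67 and Surf1 at -0.64. Coa3 had 47.3, 18.7, 28.7, 63.1 and 60.4 TPM in CZA+DAV132 libraries, against 47.8, 51.6, 118, 55.3 and 63.9 TPM in CZA libraries. Surf1 had 21.98 to 89.5 TPM in CZA+DAV132 libraries and 28.3 to 123 TPM in CZA libraries. Both pairs of groups overlapped.

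With anti-PD-1 in CZA+DAV132 mice, the 5 anti-PD-1 libraries had the Coa7 values just given, against 9.41, 12.1, 7.52 and 13.1 TPM in isotype libraries. The Coa7 values of the groups did not overlap as deposited, where 4.43% of all genes tested were lower without overlap. They also stayed apart after removal of the repeat-rich entries (2.74 to 6.75 TPM in anti-PD-1, against 7.54 to 13.1 TPM in isotype libraries), where no share of all genes was counted. The log2 difference was -1.27 (SE 0.56) with an unadjusted p of 0.0328, but limma's adjusted p was 0.401, and without T026 the difference was -1.02 (adjusted p = 0.72). It is therefore not a call, as for the other 8 members (adjusted p-values of 0.786 and above), against 0.24% of all genes. Marker sums moved with these groups as well: the endothelial sum was 1756 to 5830 TPM in anti-PD-1 libraries, against 814 to 1429 TPM in isotype libraries, without overlap. That sum was nearly all Pecam1, with Cdh5 listed at 0 in 16 of the 19 libraries of the set. The 4 globin genes summed to 55.4 to 236 TPM in anti-PD-1 libraries, against 23.4 to 87.5 TPM in isotype libraries, and the 7 macrophage and monocyte genes to 44.5 to 98.6 TPM, against 44.8 to 305 TPM. The 3 NK cell genes summed to 13.3 to 26.5 TPM, against 24.3 to 36.9 TPM. The 7 T cell genes summed to 3744 to 11227 TPM, against 5944 to 10430 TPM. Their part in the result was not tested.

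With DAV132 under isotype, Coa7 had 9.41, 12.1, 7.52 and 13.1 TPM in CZA+DAV132 libraries, against 4.96, 9.05, 4.16, 1.56 and 2.26 TPM in CZA libraries, overlapping through T985. Its difference of 1.23 (SE 0.56, limma adjusted p = 0.429, unadjusted p = 0.0381) was the largest of the 9, and Sco1 followed Cox10 (0.95) at 0.91; none was called, against 0.113% of all genes. With anti-PD-1 in CZA mice Coa7 differed by 0.65 (SE 0.53, limma adjusted p = 0.631), none of the 9 was called, against 0.285% of all genes, and 8 of the 9 differences were above 0, all but Cox15 (-0.94). The median of all genes tested was itself 0.25 in this comparison, and 3 of the 9 members lay below it. The interaction was -1.93 for Coa7 (SE 0.77, unadjusted p = 0.0201, limma adjusted p = 0.421), -1.48 for Coa3 (adjusted p = 0.483) and -1.03 for Sco1 (adjusted p = 0.568), with no member called, against 0.045% of all genes. Several members spread widely in CZA isotype libraries, with Coa4 from 0 to 34.9 TPM, Coa5 from 1.14 to 39.6 TPM, Cox10 from 2.37 to 62.2 TPM and Cox15 from 0.0952 to 13.8 TPM. The spread behind the tests was wide as well: the SE of Coa7 was 0.53 to 0.77 here and 0.30 to 0.42 in CD8 cells.

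Relative to the other members within a library, Coa7 stood at -1.61 ± 0.54 in CZA+DAV132 anti-PD-1 (n = 5), -0.99 ± 1.29 in CZA anti-PD-1 (n = 5), -0.43 ± 0.32 in CZA+DAV132 isotype (n = 4) and -1.39 ± 0.80 in CZA isotype libraries (n = 5, SD throughout). The CZA+DAV132 anti-PD-1 values reached up to -0.94 and the CZA+DAV132 isotype values down to -0.70, so these groups did not overlap. CZA isotype values (up to -0.75) also lay below those of CZA+DAV132 isotype, by a narrow gap, while CZA anti-PD-1 ran from -3.09 to 0.46 and overlapped every other group. In the lists of related genes only Ndufa4, an oxidase subunit, was lower with anti-PD-1 in CZA+DAV132 mice (-1.38, limma adjusted p = 0.0489), and only Ndufaf1, a complex I assembly factor, was higher with anti-PD-1 in CZA mice (2.85, adjusted p = 0.0438). Neither passed under median-ratio scaling, and Ndufa4 did not pass without T026. Over all genes the anti-PD-1 comparison in CZA+DAV132 gave 4 higher and 28 lower calls as deposited, 65 and 41 without the repeat-rich entries, 12 and 32 under median-ratio scaling, and 14 and 19 without T026. In CZA mice it gave 37 and 1, and 17 and 7 under median-ratio scaling.

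**Figure D4:**
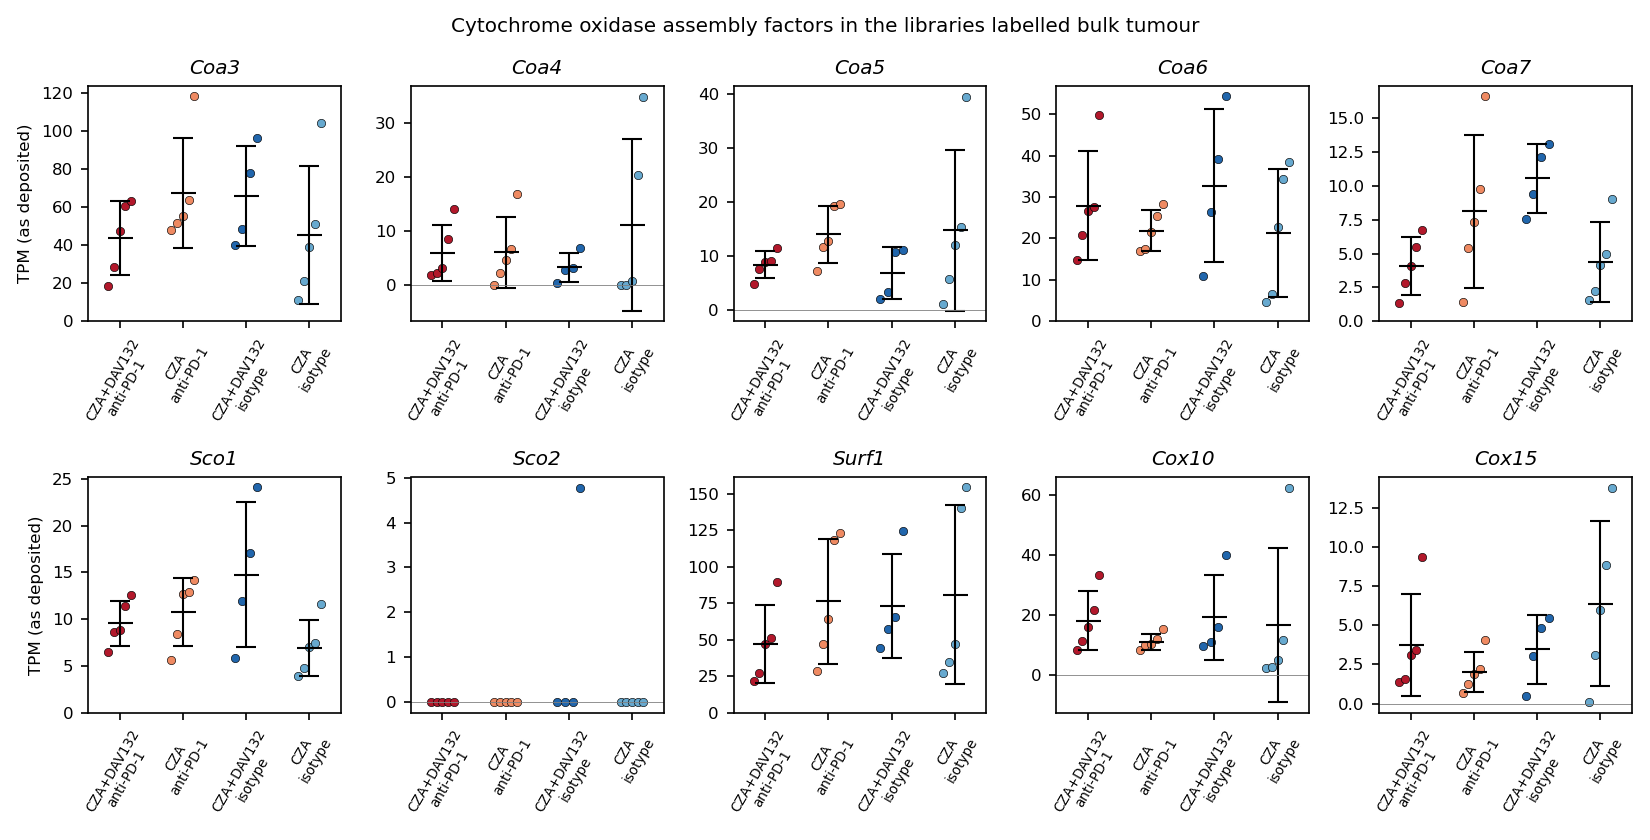
Levels of the 10 assembly factors in libraries labelled bulk tumour, in TPM as deposited, by group; points are libraries (5, 5, 4 and 5 from left to right), bars the mean and SD, left out for Sco2. Coa7 lies between 1.34 and 6.73 TPM in CZA+DAV132 anti-PD-1 and between 7.52 and 13.1 TPM in CZA+DAV132 isotype, while single high libraries stretch Coa3, Coa4, Coa5, Cox10 and Cox15.

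Among 7115 genes with a mean of at least 5 TPM in the CD8 set, predicted genes left out, the 5 whose centred log2(TPM + 1) differed least from that of Coa7 over the 20 CD8 libraries were BC031181 (mean absolute difference 0.28), Pdcd1lg2 (0.29), which encodes a PD-1 ligand, Crip1 (0.29), the ribosomal pseudogene Rps13-ps2 (0.29), whose reads may belong to Rps13, and Atp5g1 (0.30), which encodes a subunit of the ATP synthase ring. Pdcd1lg2 averaged 7.67 TPM in CZA+DAV132 anti-PD-1, against 19.0 in CZA anti-PD-1, 24.7 in CZA+DAV132 isotype and 21.7 in CZA isotype libraries. No member was among them: Coa3 was the nearest, at 0.42 and rank 832, then Coa6 at rank 1622, Surf1 at 1990 and Coa5 at 2431. This ordering uses the libraries that chose Coa7, and it shares with them the repeat-rich content described above.

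Annotated neighbours limit how firmly some members can be read. Coa3 overlaps Cntd1, Coa6 overlaps Tarbp1, Surf1 overlaps Surf2, Cox15 overlaps Cutc and Entpd7, Cox10 overlaps 9630013K17Rik and Gm12289, and Sco2 overlaps Ncaph2, all on the opposite strand, and whether the quantification used strand is not given in the sources used here. Coa7 and Coa4 have no overlapping annotated gene. The start of Coa5 lies 36 bp from that of Unc50, and the start of Sco1 76 bp from that of Adprm, both head to head. In CD8 cells with anti-PD-1 in CZA+DAV132 mice Unc50 fell by 0.91 (limma adjusted p = 0.0367), while Adprm (-0.40, adjusted p = 0.356), Surf2 (-0.47, adjusted p = 0.227) and Cutc (-0.25, adjusted p = 0.612) did not pass.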

How the data were processed

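Per the submitters' processing notes, the authors quantified reads with kallisto 0.45 against GRCm38 and deposited TPM for each of 39 libraries; per the labels' protocols, RNA was ribodepleted and made into directional libraries. No counts were used, and no source used here gives depth or strand settings. Columns were matched to the labels by name, and each set was fitted alone. Genes that reached 1 TPM in 4 or more libraries (12942 CD8, 13326 tumour) entered limma 3.58.1 (R 4.3.3) with an intensity trend on log2(TPM + 1), 4 group means and Benjamini-Hochberg adjustment over all of them, called under 0.05. The members, the lists and the comparisons were chosen with earlier results of these data known. Named genes were the 10 members, up to 3 genes of smallest p per list, and the 5 genes most like Coa7. The 19 repeat-rich entries were those sharing at least 20% of 24-base words with Gm10800 or Gm17604, or made mostly of a dinucleotide run. Promoters came from RefSeq and gene models from GENCODE. Alternatives were another pseudocount, filters, scalings, array weights, fewer groups and left-out libraries. The fits were tested on simulated data.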

Additional observations from a re-analysis of the deposited data

Results flagged for a closer look

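Of 77 groups of 4 or 5 libraries tested over the members, 4 held a library farther from the others than Dixon's criterion allows, about what 1 in 20 groups gives by chance, and all were labelled bulk tumour. Coa3 was at 118 TPM in T988 (CZA anti-PD-1), where the others had 47.8 to 63.9 TPM. Cox15 was at 9.35 TPM in T029 (CZA+DAV132 anti-PD-1), where the others had 1.37 to 3.40 TPM. Cox10 was at 62.2 TPM in T987 (CZA isotype), where the others had 2.37 to 11.6 TPM. Sco2 was at 4.77 TPM in T027 (CZA+DAV132 isotype) and listed at 0 in the other libraries of the group.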

How the results depend on the processing

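No paired analysis was possible because the groups share no replicate numbers. In CD8 cells under anti-PD-1 the log2 difference of Coa7 (-1.76) kept its sign throughout, at -1.20 without libraries 16 and 19 and between -1.93 and -1.43 with 1 library left out. With anti-PD-1 in CZA+DAV132 mice the 3 CD8 members called became 1 in a fit of the compared groups only, 1 under median-ratio scaling, 1 without the repeat-rich entries and 0 without libraries 16 and 19; leaving out 1 library gave 1 to 5. Sco1 reversed under DAV132 with anti-PD-1 (0.20, 0.15 and 0.13 under median-ratio scaling, without the repeat-rich entries and without libraries 16 and 19), and Cox15 did so too (0.20, 0.15 and 0.24, with 0.31 under array weights and 0.07 without library 19 alone). Of the alternative values of tested members, 1585 kept their side of the threshold, 21 lost a call and 6 gained one. Over all genes the CD8 calls moved with the setting: under DAV132 with anti-PD-1 there were 5, against 0 in the compared groups only, 541 with array weights and 1365 at a mean of at least 5 TPM, and 0 to 3975 with 1 library left out; with anti-PD-1 in CZA+DAV132 mice 3042, against 1281 in the compared groups only and 1192 without libraries 16 and 19. List counts under these alternatives were added after the data were seen. The causes were not tested. Depth is unknown, so counting error could not be separated from the spread between libraries.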
